A study of Mus musculus with 24 samples.

Results

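Umod, Slc12a1, Egf, Slc12a3, Pvalb, Trpm6, Calb1 and Wnk1 were followed as genes of the thick ascending limb, the distal convoluted tubule and the connecting tubule of the kidney. They were taken by symbol from the deposited table of raw gene counts. All 8 were found among its 23955 symbols, and all 8 were among the 15080 genes that passed the filter on low counts and were tested.

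The thick ascending limb reabsorbs sodium chloride without water and so dilutes the urine, and it secretes uromodulin, the most abundant protein of normal urine. The distal convoluted tubule that follows it reabsorbs sodium chloride through the thiazide-sensitive cotransporter and magnesium through TRPM channels, under the control of WNK kinases. The connecting tubule takes up calcium with the help of calbindin. These segments are known to lose transport genes when urine flow is blocked.

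The study measured kidney RNA in mice labelled PLD4+/+ and PLD4-/-. Each genotype was sampled as untreated control kidney (day 0) and at day 5 and day 10 after UUO, unilateral ureteral obstruction, in which the ureter of 1 kidney is tied. Each of the 6 groups has 4 libraries, 24 in all, made from poly(A)-selected RNA and read on a NextSeq500. The libraries labelled PLD4+/+ are called WT below and those labelled PLD4-/- are called KO. Whether the day 0 kidneys had a sham operation is not stated, and neither are age, sex, strain, the PLD4 allele and the day of surgery. The labels number the libraries but do not say that they come from separate animals, so the p-values measure only the spread between these libraries. RNA came from whole kidney tissue, so that fewer cells of a segment and less RNA per cell cannot be told apart in any result here.

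Total counts per library ran from 9800888 to 22542866. Pld4, the gene targeted in the KO mice, did not separate the genotypes at day 0: the WT libraries averaged 6.69 ± 1.61 CPM (counts scaled to library size; SD, n = 4) and the KO libraries 9.48 ± 2.48 CPM, with overlap (adjusted p = 0.438 by edgeR's quasi-likelihood test). At day 5 it averaged 48.3 ± 1.84 CPM in WT libraries and 20.3 ± 8.48 CPM in KO libraries (adjusted p = 0.0724, same test). By day 10 Pld4 averaged 81.5 ± 27.1 CPM in WT libraries and 37.3 ± 10.7 CPM in KO libraries (adjusted p = 0.0331). Its rise from day 0 was smaller in KO at day 5 (adjusted p = 0.0439) and at day 10 (adjusted p = 0.023). Where a deletion lies is not given, so reads outside it would not show it, and the genotypes are given here as labelled. Replicates 2 and 3 of WT at day 10 stood apart from the other UUO libraries. Cxcr2, a neutrophil receptor, was at 134.8 and 140.4 CPM in them and at 1.1 and 1.3 CPM in replicates 1 and 4, and Slc34a1, a phosphate transporter of the proximal tubule, was at 26.2 and 186.8 CPM against 1045.7 and 2685.8. For the members' changes from day 0 and the lists of related genes, results on WT at day 10 are therefore given with and without this pair. The ratio tests, Pld4 and the counts of groups without overlap are given only with it. So are the counts of called markers of other cell types and the nearest patterns.

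Levels of other markers of these segments were read at day 0. Kcnj1, the potassium channel of the thick limb, was at 434 ± 77.8 CPM in WT, and Casr, its calcium-sensing receptor, was at 68.1 ± 9.30 CPM. In the distal convoluted tubule, Emx1 was at 33.4 ± 3.40 and Sall3 at 8.17 ± 1.32 CPM, both of them transcription factors. In the connecting tubule, Klk1, tissue kallikrein, was at 2411 ± 285 CPM and S100g, a calcium-binding protein, at 767 ± 199 CPM. None of these markers was absent. Whole kidney holds all of these segments, so their presence does not check which segment the members report on. Cldn16 and Trpv5, planned markers as well, are given with their lists below. Pvalb is also a gene of fast skeletal muscle, and 7 muscle genes were summed as a check: at day 0 they came to between 0.945 and 1.73 CPM in WT libraries, of which Mylpf gave 1.04 ± 0.51, and Myh4 and Tnnt3 were at 0 there. Pvalb in the same libraries was at 24.4 to 35.6 CPM.

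The stretch of 250 bases before the transcription start was read for the members from RefSeq's promoters (GRCm38.p6, another build than the mm9 of the files). It was there for 7 of the 8 members, and Calb1 had none. The windows were searched on both strands for 3 short motifs. The half-site of estrogen-related receptors, spelled AAGGTCA, was present in 4.08% of all 32851 windows of that length. The TATA box, spelled TATAAA, was present in 12.4%, and the AP-1 site, spelled TGANTCA, in 6.75%. No motif contains another. The windows of a pair of thick limb genes and a pair of distal tubule genes are shown, because the members of each pair changed by unequal amounts in the results that follow. Capitals mark a motif match, and sequences run 5′ to 3′ on the strand of the gene.
Umod, chr7:119479263-119479512, minus strand: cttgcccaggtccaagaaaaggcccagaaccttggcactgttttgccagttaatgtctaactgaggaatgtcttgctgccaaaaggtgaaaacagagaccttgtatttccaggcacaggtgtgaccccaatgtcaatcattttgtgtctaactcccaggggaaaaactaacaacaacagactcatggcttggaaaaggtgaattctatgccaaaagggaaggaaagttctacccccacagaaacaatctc
Slc12a1, chr2:125152350-125152599, plus strand: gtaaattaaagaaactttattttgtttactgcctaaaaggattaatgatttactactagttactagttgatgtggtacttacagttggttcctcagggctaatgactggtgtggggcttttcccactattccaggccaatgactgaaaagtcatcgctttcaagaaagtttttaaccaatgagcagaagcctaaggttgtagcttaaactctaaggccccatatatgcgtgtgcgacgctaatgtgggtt
Slc12a3, chr8:94328958-94329207, plus strand: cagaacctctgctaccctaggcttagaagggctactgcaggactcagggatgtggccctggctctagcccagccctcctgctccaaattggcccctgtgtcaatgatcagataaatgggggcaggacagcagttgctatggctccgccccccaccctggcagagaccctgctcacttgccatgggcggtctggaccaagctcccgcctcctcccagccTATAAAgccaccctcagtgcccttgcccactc
Pvalb, the first of 2 starts, chr15:78206401-78206650, minus strand: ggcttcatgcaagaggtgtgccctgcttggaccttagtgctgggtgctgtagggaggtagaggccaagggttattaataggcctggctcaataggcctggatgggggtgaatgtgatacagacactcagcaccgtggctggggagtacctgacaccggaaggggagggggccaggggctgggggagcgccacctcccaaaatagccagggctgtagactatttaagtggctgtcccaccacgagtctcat
The window of Slc12a3 holds TATAAA 32 bases before the start. The other 8 windows of the members, among them those of Umod, Slc12a1 and Pvalb, held none of the 3 motifs, which says only that these letters are not in these windows.

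Levels of different genes were compared only as FPKM, which is per length of transcript. In WT at day 0 the order was Umod at 1232 ± 271 FPKM (SD, n = 4), Egf at 237 ± 32.6, Slc12a1 at 221 ± 50.9, Slc12a3 at 162 ± 14.4, Calb1 at 121 ± 34.1, Wnk1 at 32.2 ± 2.01, Pvalb at 19.9 ± 3.69 and Trpm6 at 3.27 ± 0.392. The libraries of Egf, Slc12a1, Slc12a3 and Calb1 overlapped with those of their neighbours in this order, while Umod lay above the rest and Wnk1, Pvalb and Trpm6 were each apart. Umod was first in all 6 groups. The places below it shifted after UUO: in WT at day 10 the FPKM means were 540 for Umod, 52.7 for Slc12a3, 48.4 for Slc12a1, 25.0 for Wnk1, 18.9 for Egf, 15 for Calb1, 4.14 for Trpm6 and 0.0554 for Pvalb. By these means Pvalb went from the seventh to the last place, and Wnk1 from below Egf and Calb1 to above both. At day 10 every place from Umod to Calb1 overlapped with the next, while Trpm6 and Pvalb were each apart. Outside replicates 2 and 3, the place of Wnk1 was not the same in each library. Replicate 1 had Wnk1 at 21.2, Calb1 at 6.48 and Egf at 5.29 FPKM. Replicate 4 had Wnk1 at 30.9, below Calb1 at 38.4 and Egf at 66.2 FPKM.

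**Figure D1:**
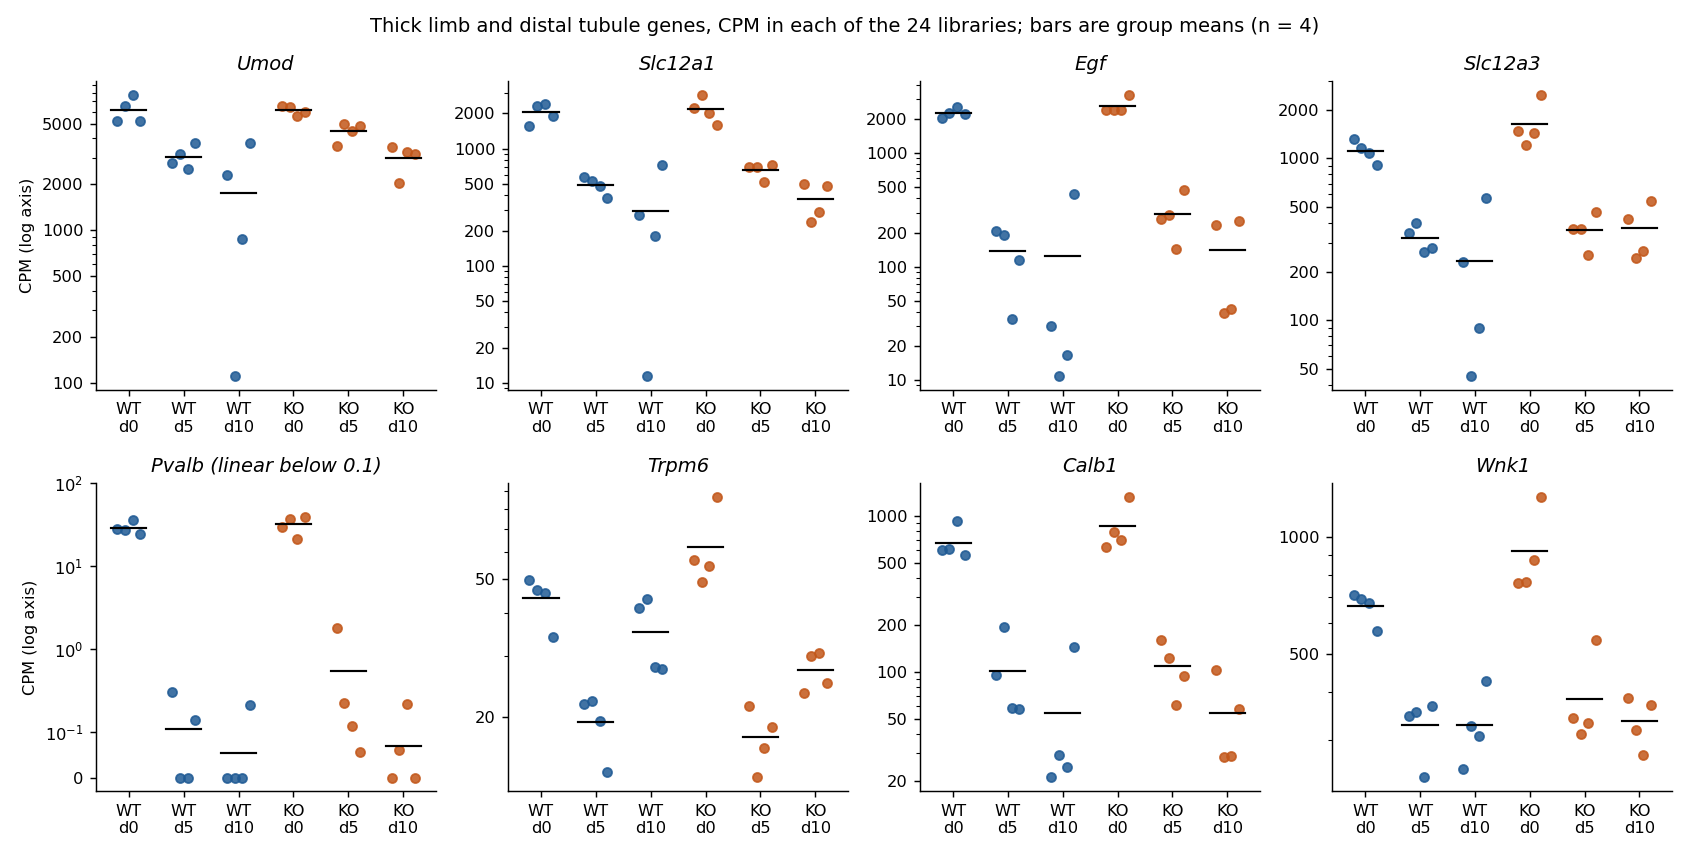
CPM of the 8 members in each library on a log axis (for Pvalb linear below 0.1, so that libraries with no counts can be drawn), by group: WT in blue and KO in orange at day 0 (d0) and at day 5 (d5) and day 10 (d10) after UUO. Points are libraries and bars are group means; UUO libraries lie below day 0 for every member but Trpm6 in WT at day 10, Pvalb is at or near 0 after UUO, and WT at day 10 is widely spread for Umod, Slc12a1 and Egf.

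After UUO the members fell together in both genotypes, by very different amounts. At the adjusted p threshold of 0.05, 7 of 8 fell in WT at day 5, against 25.6% of all genes tested, and 7 of 8 fell in WT at day 10, against 30.3%. In KO 7 of 8 fell at day 5, against 17% of all genes, and 7 of 8 at day 10, against 26%. No member rose in any of the 4 comparisons, where 31%, 37.8%, 22.4% and 28.3% of all genes rose (WT at day 5 and day 10, then KO). The member that did not pass was Umod in 3 of them and Trpm6 in WT at day 10. The median log2 change of the 8 was -1.92 and -2.52 in WT at day 5 and day 10, and -2.0 and -2.35 in KO, where the medians of all genes tested were 0.08, 0.12, 0.01 and 0.04. On the log2(FPKM + 1) scale, which has no TMM scaling, the medians of all genes were 0.53, 0.54, 0.47 and 0.51, and the share of called genes that were higher went from 54.7%, 55.5%, 56.8% and 52.1% to 90.2%, 80.2%, 95.5% and 88.1%, so falls are smaller there. The comparisons within a genotype share their day 0 libraries, so day 5 and day 10 are not independent of each other. In TMM-scaled CPM, UUO and day 0 libraries did not overlap for 8 of 8 members in WT at day 5 (53.1% of all genes), 7 of 8 in WT at day 10 (61.4%), 8 of 8 in KO at day 5 (39.6%) and 8 of 8 in KO at day 10 (56.6%). On FPKM this separation was not complete in either genotype. Umod in WT ran from 958 to 1586 FPKM at day 0, and reached 1147 at day 5 and 1100 at day 10. Wnk1 in WT began at 29.6 FPKM at day 0 and reached 30.9 at day 10. Trpm6 in KO began at 3.88 FPKM at day 0 and reached 4.06 at day 10. Umod in KO ran from 1270 to 1413 FPKM at day 0 and from 1190 to 1657 at day 5. Wnk1 in KO ran from 39.6 to 73.7 FPKM at day 0 and from 25.2 to 43.6 at day 5.

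**Figure D2:**
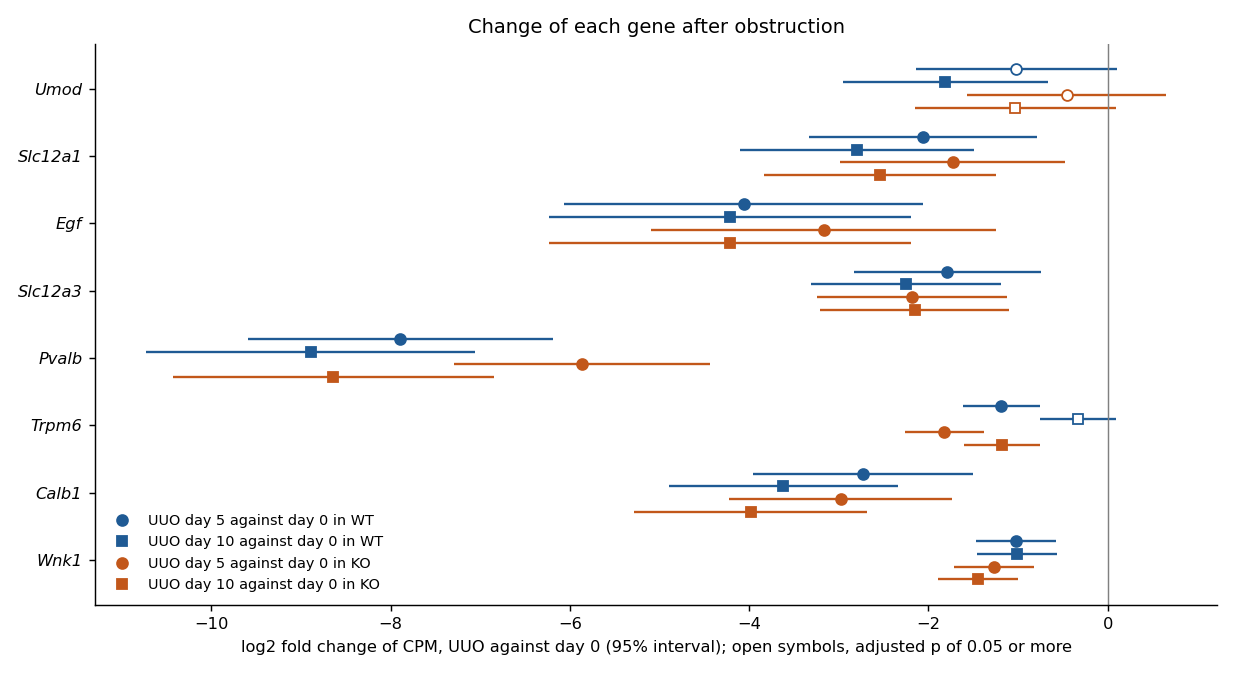
Log2 fold change from day 0 of each member (edgeR) with its 95% confidence interval, in WT (blue) and KO (orange) at day 5 (circles) and day 10 (squares); open symbols have an adjusted p of 0.05 or more and the vertical line marks no change. Pvalb lies farthest to the left, the interval of Umod crosses 0 in 3 of 4 comparisons and that of Trpm6 crosses 0 in WT at day 10.

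Umod encodes uromodulin, the secreted protein of the thick limb. In WT at day 0 the 4 libraries gave 5229.9, 6502, 7698.5 and 5228 CPM. They gave 2774, 3152, 2525 and 3725 CPM at day 5, and 2288, 112, 875 and 3745 CPM at day 10. In CPM, though not in FPKM, all 8 UUO libraries were below all 4 at day 0, and those at day 10 covered a 33.6-fold range. The log2 change was -1.02 ± 0.53 (SE; adjusted p = 0.107) at day 5 and -1.81 ± 0.54 (adjusted p = 0.0058) at day 10. In a fit to the libraries of these 2 groups alone the day 10 call was lost (adjusted p = 0.0973) and the day 5 change passed (adjusted p = 0.00323).

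In KO, Umod was at 6495, 6444, 5604 and 5944 CPM at day 0. It was at 3589, 5009, 4472 and 4798 CPM at day 5, and at 3499, 2029, 3276 and 3185 CPM at day 10. Here too no UUO library reached the day 0 range in CPM. The log2 change was -0.45 ± 0.53 (adjusted p = 0.518) at day 5 and -1.03 ± 0.53 (adjusted p = 0.107) at day 10. The spread that these tests use is shared by all groups, WT at day 10 among them. With its replicates 2 and 3 left out, the change of Umod was -0.98 ± 0.21 (adjusted p = 0.00058) in WT at day 5 and -1.02 ± 0.21 (adjusted p = 0.000387) in KO at day 10, so both passed. In KO at day 5 it was -0.44 ± 0.21 (adjusted p = 0.0927) without them, and on the FPKM scale its sign turned (0.12).

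Slc12a1 encodes NKCC2, the furosemide-sensitive cotransporter that drives salt uptake in the thick limb. In WT it was at 1556, 2332, 2421 and 1884 CPM at day 0, at 577, 529, 479 and 378 CPM at day 5, and at 271, 11.5, 181 and 718 CPM at day 10. No UUO library came near the day 0 range, and replicate 2 at day 10 was far below its group. It fell 4.17-fold at day 5 (log2 -2.06 ± 0.60, adjusted p = 0.00682) and 6.93-fold at day 10 (log2 -2.79 ± 0.62, adjusted p = 0.000506). On the log2(FPKM + 1) scale the day 5 change was -1.40 and did not pass (limma, adjusted p = 0.0558).

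In KO, Slc12a1 was at 2234, 2868, 2027 and 1595 CPM at day 0, at 699, 693, 515 and 727 CPM at day 5, and at 497, 238, 288 and 477 CPM at day 10. The 3 groups did not overlap. The fall was 3.31-fold at day 5 (log2 -1.73 ± 0.60, adjusted p = 0.0266) and 5.82-fold at day 10 (log2 -2.54 ± 0.62, adjusted p = 0.00174). The day 5 call was lost without KO day 0 replicate 2 (adjusted p = 0.062), KO day 5 replicate 1 (0.051) or KO day 5 replicate 3 (0.0749), and on the log2(FPKM + 1) scale (-1.11, limma, adjusted p = 0.133).

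Egf encodes the precursor of epidermal growth factor, which thick limb and distal convoluted tubule cells make and shed into urine. In WT it was at 2054, 2281, 2574 and 2226 CPM at day 0, at 208, 189, 34.8 and 115 CPM at day 5, and at 30.1, 10.9, 16.6 and 435 CPM at day 10. All UUO libraries were far below day 0, and at day 10 replicate 4 was far above the other 3. The fall was 16.7-fold at day 5 (log2 -4.06 ± 0.95, adjusted p = 0.00134) and 18.6-fold at day 10 (log2 -4.21 ± 0.96, adjusted p = 0.000635). Without replicate 4 the day 10 change was -6.87 on the log2 scale.

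In KO, Egf was at 2399, 2387, 2432 and 3266 CPM at day 0, at 262, 286, 144 and 476 CPM at day 5, and at 231, 39.1, 42.6 and 254 CPM at day 10. The UUO libraries were all below day 0 and overlapped each other. The fall was 8.98-fold at day 5 (log2 -3.17 ± 0.92, adjusted p = 0.00982) and 18.5-fold at day 10 (log2 -4.21 ± 0.96, adjusted p = 0.00107).

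Slc12a3 encodes NCC, the thiazide-sensitive cotransporter that defines the distal convoluted tubule. In WT it was at 1322, 1154, 1075 and 912 CPM at day 0, at 349, 398, 265 and 280 CPM at day 5, and at 229, 45.5, 89.5 and 573 CPM at day 10. All UUO libraries lay below day 0. The fall was 3.45-fold at day 5 (log2 -1.79 ± 0.50, adjusted p = 0.00466) and 4.76-fold at day 10 (log2 -2.25 ± 0.50, adjusted p = 0.00053).

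In KO, Slc12a3 was at 1469, 1214, 1428 and 2466 CPM at day 0, at 365, 366, 252 and 467 CPM at day 5, and at 422, 242, 269 and 548 CPM at day 10. Again no UUO library reached day 0, and the UUO days overlapped. The fall was 4.54-fold at day 5 (log2 -2.18 ± 0.50, adjusted p = 0.002) and 4.44-fold at day 10 (log2 -2.15 ± 0.50, adjusted p = 0.00128).

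Pvalb encodes parvalbumin, a calcium buffer of the early distal convoluted tubule, and it was the member that fell most. In WT it had 317, 321, 397 and 284 counts at day 0, or 27.4, 27.3, 35.6 and 24.4 CPM. It had 5, 0, 0 and 3 counts at day 5 and 0, 0, 0 and 4 counts at day 10. Of 8 WT libraries after UUO, 5 thus had none. The fitted log2 change was -7.89 ± 0.81 (adjusted p = 1.68e-07) at day 5 and -8.89 ± 0.87 (adjusted p = 4.53e-08) at day 10, values that depend on how counts of 0 are handled. Pooled over the 4 libraries and scaled by their depth, the counts went from 1319 to 8 at day 5, 251-fold lower (95% interval 127 to 583), and to 4 at day 10, 545-fold lower (212 to 2004). These intervals cover counting error only.

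In KO, Pvalb was at 28.9, 36.9, 21.3 and 38.6 CPM at day 0 and had 30, 4, 2 and 1 counts at day 5 and 0, 1, 4 and 0 counts at day 10. Replicate 1 at day 5, at 1.75 CPM, held most of the counts of its group. The fitted log2 change was -5.86 ± 0.68 (adjusted p = 1.75e-06) at day 5 and -8.64 ± 0.85 (adjusted p = 1.55e-07) at day 10. Pooled counts went from 1420 to 37 at day 5, 58.3-fold lower (42.1 to 83.2), and to 5 at day 10, 433-fold lower (185 to 1336). Without replicate 1 the day 5 change was -7.80 on the log2 scale. The sum of the 7 muscle genes rose to at most 4.96 CPM, in WT at day 10, while Pvalb fell.

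Trpm6 encodes a channel kinase for magnesium uptake in the distal convoluted tubule, and it was the member whose fall was smallest at day 10 in WT. In WT it was at 49.9, 46.7, 45.8 and 34.2 CPM at day 0, at 21.8, 22.3, 19.6 and 13.9 CPM at day 5, and at 41.2, 43.8, 28.0 and 27.6 CPM at day 10. Day 5 lay below both other days, whose libraries overlapped. The log2 change from day 0 was -1.19 ± 0.21 (adjusted p = 7.6e-05) at day 5 and -0.33 ± 0.20 (adjusted p = 0.155) at day 10. On the FPKM scale, where the median of all genes was itself higher at day 10, the latter turned to between 0.24 and 0.29.

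In KO, Trpm6 was at 57.0, 49.2, 54.8 and 86.6 CPM at day 0, at 21.6, 13.4, 16.4 and 18.8 CPM at day 5, and at 23.5, 30.1, 30.8 and 25.1 CPM at day 10. The 3 groups did not overlap in CPM, while in FPKM day 0 and day 10 did. The log2 change was -1.82 ± 0.21 (adjusted p = 1.43e-06) at day 5 and -1.18 ± 0.20 (adjusted p = 8.1e-05) at day 10.

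Wnk1 encodes a kinase that senses chloride and activates the cotransporters of both segments through SPAK and OSR1. The distal convoluted tubule makes a short form without the kinase domain from a promoter of its own, and counts per gene do not separate it from the long form made in most cells. In WT, Wnk1 was at 710, 692, 676 and 574 CPM at day 0, at 347, 355, 241 and 367 CPM at day 5, and at 253, 326, 308 and 426 CPM at day 10. All UUO libraries were below day 0 in CPM, while in FPKM day 10 overlapped with day 0, and the UUO days overlapped. The log2 change was -1.02 ± 0.21 (adjusted p = 0.00046) at day 5 and -1.01 ± 0.21 (adjusted p = 0.00027) at day 10. On the log2(FPKM + 1) scale the changes were -0.36 at both days and did not pass (limma, adjusted p = 0.0949 and 0.0831).

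In KO, Wnk1 was at 762, 769, 876 and 1271 CPM at day 0, at 343, 312, 332 and 545 CPM at day 5, and at 386, 319, 274 and 370 CPM at day 10. No UUO library reached day 0 in CPM. The log2 change was -1.26 ± 0.21 (adjusted p = 0.00011) at day 5 and -1.45 ± 0.21 (adjusted p = 1.53e-05) at day 10.

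Calb1 encodes calbindin, the calcium carrier of the late distal convoluted and connecting tubule. In WT it was at 599, 611, 924 and 557 CPM at day 0, at 95.7, 194, 58.7 and 57.5 CPM at day 5, and at 21.0, 29.4, 24.6 and 144 CPM at day 10. The UUO libraries lay below day 0 and overlapped each other through replicate 4 at day 10. The fall was 6.63-fold at day 5 (log2 -2.73 ± 0.58, adjusted p = 0.000605) and 12.3-fold at day 10 (log2 -3.62 ± 0.61, adjusted p = 2.78e-05).

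In KO, Calb1 was at 628, 786, 699 and 1322 CPM at day 0, at 158, 122, 61.4 and 93.8 CPM at day 5, and at 103, 28.2, 29.0 and 57.3 CPM at day 10. UUO and day 0 did not overlap. The fall was 7.89-fold at day 5 (log2 -2.98 ± 0.59, adjusted p = 0.000559) and 15.8-fold at day 10 (log2 -3.98 ± 0.62, adjusted p = 2.71e-05).

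Ratios between members within a library do not depend on the scaling of libraries, and they showed that members changed by unequal factors. Of 32 tests (8 ratios in 4 comparisons, exact two-sided permutation test of 4 against 4 libraries, smallest possible p = 0.028571), 24 had an adjusted p under 0.05. Every one of these had the smallest p that the design allows, adjusted to 0.0381. With any 1 library left out, between 19 and 25 had an adjusted p under 0.05. The ratio tests were not run with both replicates 2 and 3 of WT at day 10 left out. Leaving out any 1 of the WT day 0 libraries ended the calls in WT at day 10 for Egf relative to Umod and Slc12a1, and for Trpm6 and Wnk1 relative to Slc12a3. The changes themselves moved little. They were -3.24 to -3.13 for Egf to Umod, -2.10 to -1.95 for Egf to Slc12a1, 2.49 to 2.55 for Trpm6 and 1.78 to 1.85 for Wnk1. Leaving out any of these libraries also ended the call of Trpm6 in WT at day 5. Leaving out any 1 of the KO day 0 libraries ended the calls for Pvalb relative to Slc12a3 at day 5 and for Trpm6 and Wnk1 relative to Slc12a3 at day 10 in KO, while the changes themselves moved little (Pvalb -4.78 to -4.43, Trpm6 0.98 to 1.05, Wnk1 0.70 to 0.80). It ended that of Calb1 at day 10 for replicates 2, 3 and 4, and those of Egf relative to Slc12a1 for replicate 4 (both days) and replicate 3 (day 10). The ratios are differences of log2 counts, so each member's length cancels between groups.

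Within the thick limb, Umod gained on Slc12a1. The log2 ratio of Umod to Slc12a1 was 1.75, 1.48, 1.67 and 1.47 in the WT libraries at day 0. It was 2.27, 2.57, 2.40 and 3.30 at day 5, and 3.08, 3.27, 2.27 and 2.38 at day 10. All 8 UUO libraries were above all 4 at day 0. The ratio rose by 1.04 at day 5 and by 1.16 at day 10 in WT, and by 1.25 and 1.52 in KO (adjusted p = 0.0381 for each, exact permutation test). Egf lost ground to both on average. Relative to Umod its log2 ratio changed by -3.33 and -3.19 in WT and by -2.81 and -3.65 in KO. Relative to Slc12a1 it changed by -2.29, -2.03, -1.57 and -2.13, in the same order (adjusted p = 0.0381 for all of these, exact permutation test). In WT at day 10 the latter ratio was -3.17, -0.08, -3.45 and -0.72 in replicates 1 to 4, against -0.03 to 0.40 at day 0. Replicate 2 thus lay only just below the day 0 range.

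Relative to Slc12a3, Pvalb lost ground while Wnk1, whose counts include the long form made in most cells, gained. The log2 ratio of Pvalb to Slc12a3 changed by -6.59 and -6.42 in WT and by -4.65 and -6.70 in KO, with 0.5 added to each count. That of Wnk1 to Slc12a3 rose by 0.76 and 1.83 in WT and by 0.89 and 0.75 in KO (adjusted p = 0.0381 for all 8 of these, exact permutation test). In WT at day 10 it was 0.14, 2.84, 1.78 and -0.43, against -0.90 to -0.67 at day 0, so its size there came mostly from replicates 2 and 3. Trpm6 gained on Slc12a3 by 0.60 and 2.52 in WT and by 1.02 in KO at day 10 (adjusted p = 0.0381 for each), with -2.47, -0.05, -1.68 and -4.38 in the 4 WT libraries at day 10 against -4.74 to -4.55 at day 0. In KO at day 5 the rise of 0.36 did not pass (adjusted p = 0.252).

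Calb1 lost ground to Slc12a3 by 1.96 on the log2 scale in KO at day 10 (adjusted p = 0.0381, exact permutation test). In the other 3 comparisons its change relative to Slc12a3 was between -1.24 and -0.84 and did not pass (adjusted p from 0.0703 to 0.135). Each of these 3 passed without 1 library (adjusted p = 0.0366): in WT at day 5 without replicate 2 of that day (-1.36), in WT at day 10 without replicate 2 (-1.69) and in KO at day 5 without replicate 1 (-1.03). The ratio of Slc12a1 to Slc12a3, the salt cotransporters of the neighbouring segments, did not pass in any comparison, with changes from -0.97 to 0.45 (adjusted p from 0.229 to 0.4). In KO it passed at day 5 without day 0 replicate 2 (0.72) and at day 10 without day 0 replicate 4 (-0.76).

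**Figure D3:**
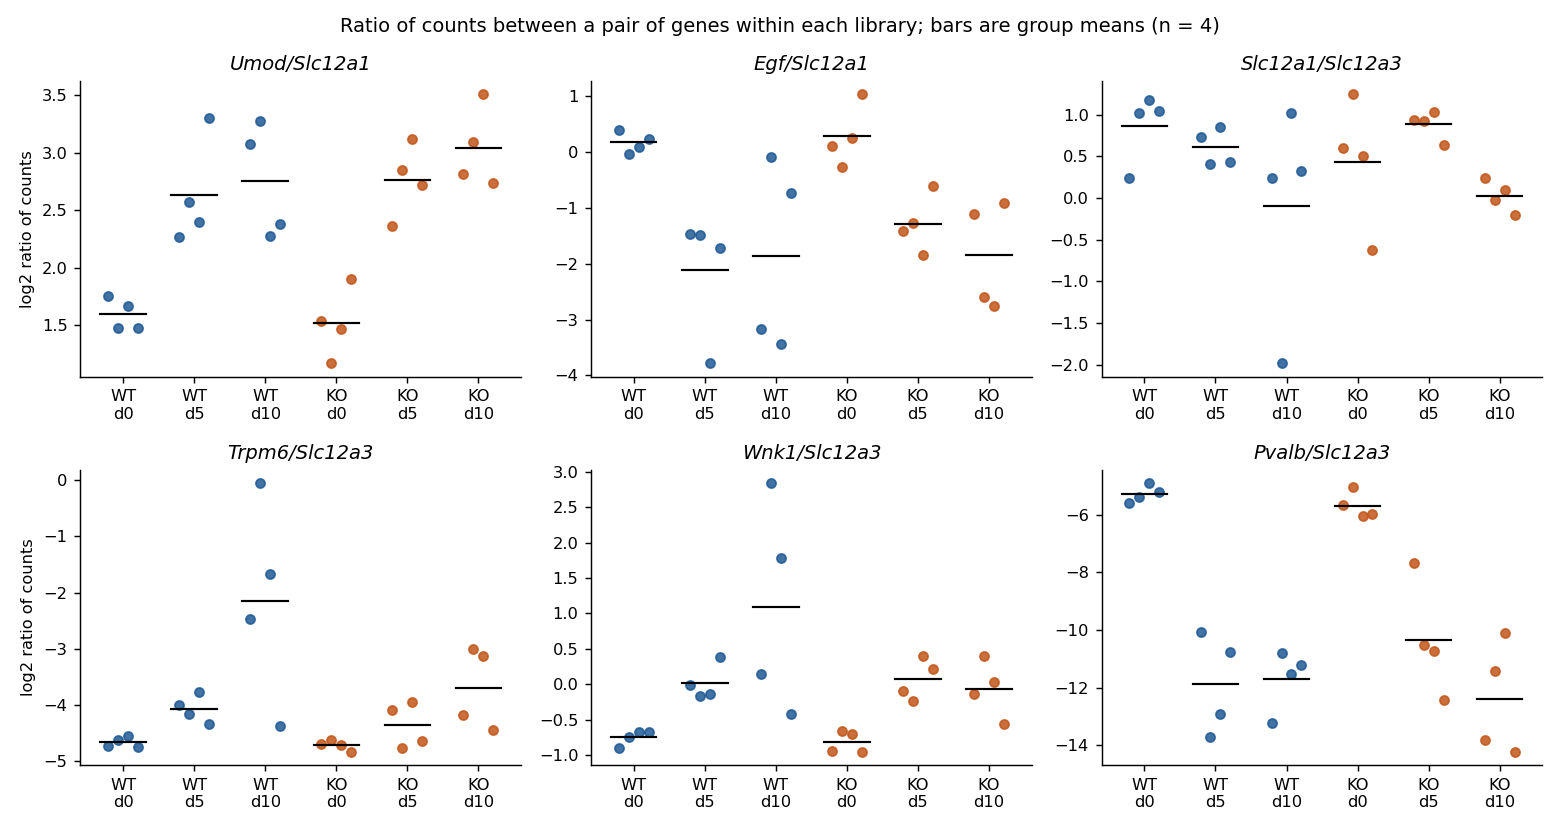
Log2 ratios of counts for 6 of the 8 pairs of members within each library, by group (WT blue, KO orange; d0, d5 and d10 are day 0, 5 and 10); points are libraries and bars are group means. Umod/Slc12a1 lies higher after UUO, Egf/Slc12a1 and Pvalb/Slc12a3 lie lower, and Slc12a1/Slc12a3 overlaps day 0 of its genotype in every UUO group.

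From day 5 to day 10, 1 of 8 members changed in WT (10.8% of all genes tested changed, 7.86% upward). That member was Trpm6, which rose by 0.86 ± 0.20 on the log2 scale (adjusted p = 0.0123) with no overlap between the days, as for 6.16% of all genes. The call was lost without WT day 10 replicate 2 (adjusted p = 0.0651), and without both replicates 2 and 3 the difference was 0.82 (adjusted p = 0.53). The other 7 did not pass and ran from -1.0 (Pvalb) to 0.00 (Wnk1). Without WT day 10 replicate 4, 6 members passed: Trpm6 was 0.94 higher, and Umod (-1.49), Slc12a1 (-1.68), Egf (-2.85), Slc12a3 (-1.42) and Calb1 (-2.04) were lower at day 10, where 14.5% of all genes were higher and 15.2% lower. In KO 0 of 8 members passed between the days (0.0199% of all genes tested). The days did not overlap for 3 of 8 members in KO, Umod, Slc12a1 and Trpm6 (8.2% of all genes). Trpm6 was higher by 0.64 ± 0.20 there (adjusted p = 0.346), and Pvalb differed by -2.78 ± 1.06 (adjusted p = 0.393), with -0.83 without KO day 5 replicate 1 and -4.31 without KO day 10 replicate 3. Trpm6 and Pvalb were the 2 members with an unadjusted p under 0.05, and DESeq2 also called 0.

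For Umod, Slc12a1, Egf, Slc12a3 and Calb1, the 4 WT libraries at day 10 differed among themselves more than those of any other group. As a share of the WT day 0 mean, Umod stood at 37.1%, 1.81%, 14.2% and 60.8% in replicates 1 to 4. Slc12a1 stood at 13.2%, 0.562%, 8.83% and 35.1%, and Egf at 1.32%, 0.478%, 0.726% and 19.0%. Replicate 2 was lowest for all 3 and replicate 4 highest. Trpm6 did not follow that order, at 93.5%, 99.3%, 63.5% and 62.5%, and Wnk1 was at 38.2%, 49.2%, 46.4% and 64.3%. The highest library was 62.3 times the lowest for Slc12a1, 39.8 times for Egf, 12.6 times for Slc12a3 and 6.85 times for Calb1, but 1.68 times for Wnk1 and 1.59 times for Trpm6. The 8 members together made up between 0.0639% and 0.639% of all counts in these 4 libraries, and between 0.882% and 1.39% in the day 0 libraries.

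**Figure D4:**
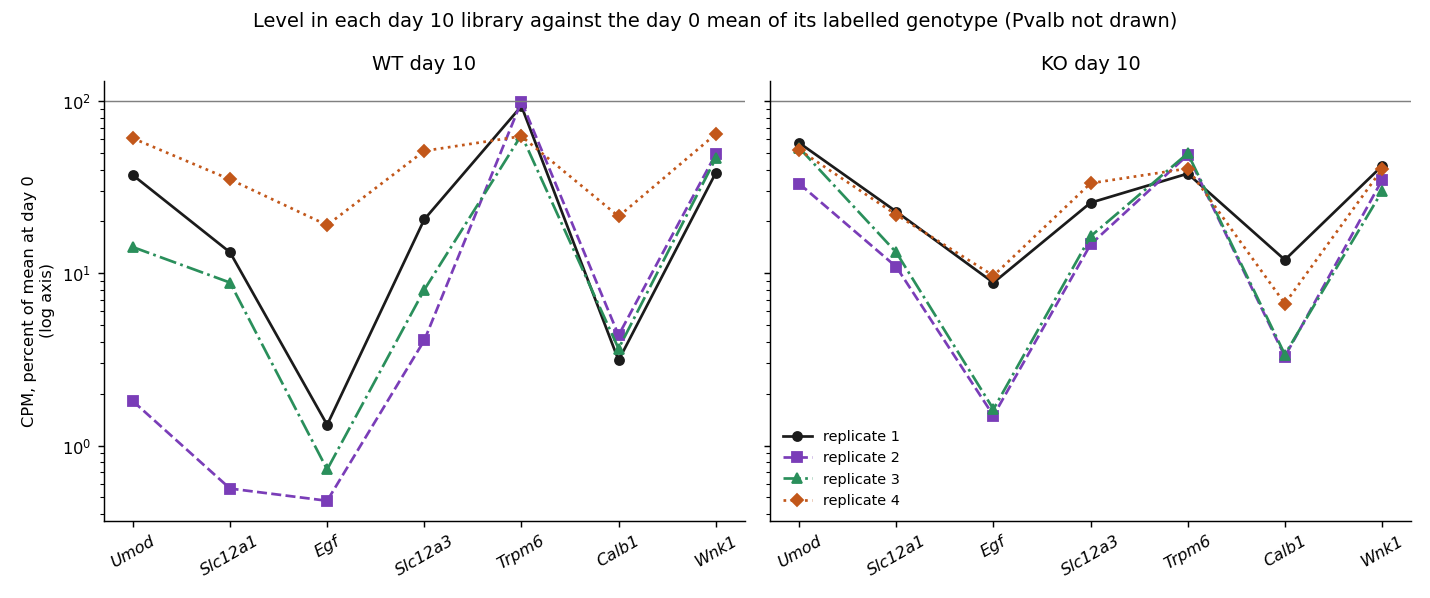
CPM of 7 members (Pvalb not drawn) in each of the 4 WT (left) and 4 KO (right) libraries at day 10, as a percentage of the day 0 mean of the same labelled genotype, on a log axis; each line joins the values of 1 library and the horizontal line marks the day 0 mean. In WT the libraries are far apart for Umod, Slc12a1, Egf and Slc12a3, with replicate 2 lowest and replicate 4 highest, and close together for Trpm6 and Wnk1.

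Markers of other cell types differed between the same libraries. The summed CPM of 7 leukocyte markers was 392, 1328, 1855 and 394 in replicates 1 to 4 of WT at day 10, against 118 to 171 in WT at day 0. That of 5 fibroblast markers was 2413, 9263, 3462 and 1384, against 132 to 238. That of 12 proximal tubule genes was 3067, 486, 1207 and 8273, against 20511 to 24653. So replicates 2 and 3 had the most RNA of both marker groups and the least of the proximal tubule genes. None of these markers was at 0 in all 4 libraries of a group, and their part in the members' differences was not tested.

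Without replicates 2 and 3, WT at day 10 still had 7 of 8 members lower than day 0. The log2 changes were then -1.0 ± 0.27 for Umod, -2.02 for Slc12a1, -3.27 for Egf, -1.45 for Slc12a3, -8.02 for Pvalb, -3.00 for Calb1, -0.94 for Wnk1 and -0.33 for Trpm6. In KO, 7 of 8 were lower at day 5 and 8 of 8 at day 10 in that fit, and in WT 8 of 8 at day 5. That fit has its own estimate of the spread, so the shares of all genes given above do not apply to its counts. These counts, and those of the lists given below without this pair, are therefore not read as a result about the genes counted. Without replicate 4 of WT at day 10 the falls were larger: Umod -2.47, Slc12a1 -3.70, Slc12a3 -3.17, Calb1 -4.73 and Pvalb -11.8.

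The genotype comparisons ask whether the levels, or their change after UUO, differed between mice with the 2 PLD4 labels. No member passed. At day 0, 0 of 8 differed (4.18% of all genes tested did), at day 5, 0 of 8 (0.146%), and at day 10, 0 of 8 (1.41%). DESeq2 also called 0 in each. At day 0 the KO minus WT differences ran from -0.01 (Umod) to 0.56 (Slc12a3) on the log2 scale. The 2 members with an unadjusted p under 0.05 were Trpm6, 0.49 ± 0.20 higher in KO (adjusted p = 0.219), and Wnk1, 0.47 ± 0.21 higher (adjusted p = 0.267) and without overlap, which 19.6% of all genes showed. Replicate 4 of KO at day 0 was the highest library of its group for Egf, Slc12a3, Pvalb, Trpm6, Calb1 and Wnk1. Since Pld4 itself did not differ at day 0, the labels there are not backed by its level. At day 0, 3 of 7 leukocyte and 2 of 5 fibroblast markers were higher in the libraries labelled PLD4-/-, where 4.18% of all genes differed in either direction. The part of these markers in the members' values was not tested.

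At day 5 the KO minus WT differences ran from -0.14 (Trpm6) to 2.16 (Pvalb), and Pvalb was the 1 member with an unadjusted p under 0.05 (2.16 ± 0.97, adjusted p = 0.335). That difference ran from 0.19 without KO day 5 replicate 1, which held 30 of the 37 counts of its group, to 3.09 without WT day 5 replicate 1. At day 10 they ran from -0.36 (Trpm6) to 0.77 (Umod), and 0 members had an unadjusted p under 0.05. The 95% intervals were wide: for Umod at day 10 from -0.34 to 1.89, and for Egf from -1.57 to 1.98, so the absence of a call does not show that the genotypes were alike. For Wnk1 the interval was -0.40 to 0.48. Without WT day 10 replicate 4, 2 members passed at day 10, Egf at 2.87 (adjusted p = 0.00895) and Slc12a3 at 1.60 (adjusted p = 0.0167), both higher in the libraries labelled PLD4-/-, where 5.25% of all genes were higher. Without replicates 2 and 3 of WT at day 10 neither passed and both signs turned, to -0.72 and -0.12.

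The change from day 0 did not differ between genotypes for any member either, at day 5 (0 of 8, against 0.564% of all genes) or at day 10 (0 of 8, against 3.25%). Trpm6 came nearest: it fell further in KO by -0.63 ± 0.29 on the log2 scale at day 5 (adjusted p = 0.343) and by -0.85 ± 0.28 at day 10 (adjusted p = 0.114). Its higher KO level at day 0 (0.49) is part of both values. The KO minus WT difference was -0.14 at day 5 and -0.36 at day 10, with overlap at each day. Without WT day 10 replicate 4, Trpm6 passed at day 10 (-0.97, adjusted p = 0.0342), as did Egf (2.67, adjusted p = 0.0417). The 3.25% is of the fit to all libraries, and these calls are not set against a share of all genes.

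Other genes of the thick limb fell with the members. Of 14 further genes of this segment, all tested, 10 fell in WT at day 5, 12 in WT at day 10, 6 in KO at day 5 and 12 in KO at day 10, and 0 rose. Of all genes, 25.6%, 30.3%, 17% and 26% fell. The median log2 change was -1.61, -2.10, -0.998 and -1.60. Ptger3, a prostaglandin E receptor, changed by -1.73 ± 0.26 in WT at day 10, Irx1, a homeobox factor, by -2.36 ± 0.35, Cldn10, a claudin of the paracellular sodium route, by -2.35 ± 0.37, and Ppp1r1b, a phosphatase inhibitor, by -3.11 ± 0.55. Cldn16 and Cldn19, the claudins of the paracellular calcium and magnesium route, passed in none of the 4 comparisons (Cldn16 from -0.24 to 0.36, Cldn19 from -0.73 to 0.47). Cldn16 is a planned marker of this segment, and Cldn19 is named after its values were seen. With replicates 2 and 3 of WT at day 10 left out, 11 of 14 fell there.

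Of 16 further genes of the distal convoluted and connecting tubule, all tested, 10 fell and 1 rose in WT at day 5, 13 fell and 1 rose in WT at day 10, 11 fell in KO at day 5 and 14 fell in KO at day 10, against the same shares of all genes. Slc16a7, a monocarboxylate transporter, changed by -3.01 ± 0.42 in WT at day 10, Slc8a1, the sodium-calcium exchanger, by -1.82 ± 0.31, Cnnm2, a protein of magnesium handling, by -0.95 ± 0.18, and Fxyd2, a subunit of the sodium pump, by -2.47 ± 0.47. The 2 genes that rose were Trpv5, the calcium channel of this segment, in WT at day 5 (1.33 ± 0.53, adjusted p = 0.0379), and Atp2b1, a calcium pump made in many cell types, in WT at day 10 (0.61 ± 0.14). Trpv5 was at 0.59 in WT at day 10 (adjusted p = 0.332). S100g changed by -2.26 in WT at day 5 and by -3.02 at day 10. Trpv5 and S100g are planned markers of the connecting tubule, and Atp2b1 is named after its values were seen. Without replicates 2 and 3, 11 fell and 2 rose in WT at day 10.

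Among 14 genes of the WNK pathway other than Wnk1, all tested, 6 fell in WT at day 5, 9 fell and 1 rose in WT at day 10, 5 fell in KO at day 5 and 7 fell in KO at day 10, against 25.6%, 30.3%, 17% and 26% of all genes that fell. Wnk4, a kinase of the distal nephron, changed by -1.74 ± 0.30 in WT at day 10, Klhl3 by -2.40 ± 0.44 and Cul3 by -0.81 ± 0.15, the latter 2 being parts of the ubiquitin ligase that degrades WNK kinases. Cab39l, a scaffold that activates SPAK, changed by -1.20 ± 0.19. Stk39 (SPAK) and Oxsr1 (OSR1), the kinases that act on the cotransporters, passed in none of the 4 comparisons and lay between -0.30 and 0.00 and between -0.14 and 0.01. Wnk3 rose in WT at day 10 (0.80 ± 0.32, adjusted p = 0.0312). These 3 are named after their values were seen. Without replicates 2 and 3, 6 fell and 1 rose in WT at day 10.

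Of 13 genes of EGF receptors, other ligands and the proteases that release them, 12 were tested (Epgn was not). In WT 4 rose and 1 fell at day 5, and 5 rose and 2 fell at day 10. In KO 3 rose at day 5 and 4 at day 10, and 0 fell. These shares of genes that rose are near those of all genes (31%, 37.8%, 22.4% and 28.3%). The genes that fell were Erbb3, a receptor of the family, in WT at both days (-1.10 and -1.0), and Btc, betacellulin, a ligand, in WT at day 10 (-0.79). Areg, amphiregulin, had almost no reads at day 0 and rose in all 4 comparisons (adjusted p from 1.53e-06 to 7.67e-05). Adam10 changed by 0.77 ± 0.14 and Adam17 by 1.14 ± 0.22 in WT at day 10, both of them sheddases. Ereg, epiregulin, passed in WT at day 10 (adjusted p = 0.000417), where its libraries ran from 0.0474 to 44.3 CPM. Egfr, the receptor itself, lay between -0.28 and 0.06 and passed in none. Erbb3, Btc and Egfr are named after their values were seen. When replicates 2 and 3 were left out, 5 rose and 0 fell in WT at day 10.

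Of 10 transcription factors of the distal nephron, all tested, 1 fell and 2 rose in WT at day 5, 6 fell and 1 rose in WT at day 10, 2 fell and 1 rose in KO at day 5, and 2 fell and 1 rose in KO at day 10. Among all genes 25.6%, 30.3%, 17% and 26% fell, so that outside WT at day 10 the counts are near or under these shares. Esrrb and Esrrg, estrogen-related receptors of the family whose half-site was searched above, changed by -2.50 ± 0.52 and -1.30 ± 0.36 in WT at day 10. Ppargc1a, a coactivator of mitochondrial genes, changed by -1.49 ± 0.35, and Pou3f3, a POU-domain factor, by -0.90 ± 0.27. Grhl2 rose in all 4 comparisons, by 0.59, 0.53, 0.71 and 0.50, and Pax8 rose in WT at day 5 (0.77 ± 0.23). Grhl2 and Pax8 are named after their values were seen. In WT at day 10 without replicates 2 and 3, 3 fell and 2 rose.

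**Figure D5:**
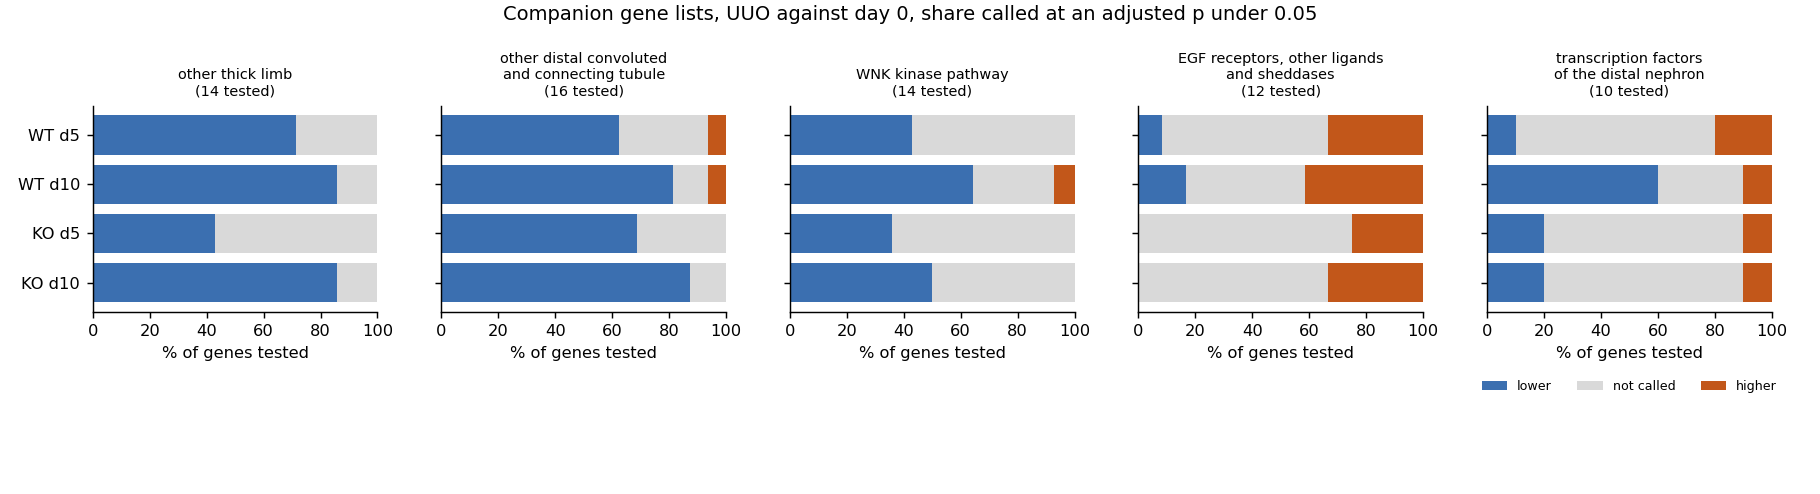
Share of the tested genes of each of the 5 companion lists that were lower (blue), higher (orange) or not called (grey) after UUO against day 0 at an adjusted p under 0.05 (edgeR), in WT and KO at day 5 (d5) and day 10 (d10). Thick limb genes were never higher, and the list of EGF receptors, ligands and sheddases holds the largest orange share in each row.

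None of these 5 lists held a gene that differed between genotypes at day 0, day 5 or day 10. This depended on WT day 10 replicate 4: without it, at day 10, 7 of 14 thick limb genes, 6 of 16 distal convoluted and connecting tubule genes, 2 of 14 WNK pathway genes, 1 of 12 EGF list genes and 3 of 10 transcription factors were higher in the libraries labelled PLD4-/-, against 5.25% of all genes, and 2 of the EGF list were lower, against 8.2%. Without replicates 2 and 3 of WT at day 10, 1 thick limb gene was lower and 1 distal tubule gene higher in KO at day 0, and 0 genes of these lists differed at day 5 or day 10. Outside these segments, 10, 12, 7 and 12 of 12 proximal tubule genes fell in WT at day 5 and day 10 and in KO at day 5 and day 10, and 6, 13, 7 and 11 of 13 collecting duct genes. In the same order, 5, 7, 3 and 6 of 7 leukocyte markers and 5, 5, 5 and 5 of 5 fibroblast markers rose. Of 4 endothelial markers 2, 2, 1 and 0 rose and 2 fell in KO at day 10, and of 3 podocyte markers 0 rose and 1 fell in KO at each day. Of all genes, 25.6%, 30.3%, 17% and 26% fell and 31%, 37.8%, 22.4% and 28.3% rose, in the same order. So the falls were not particular to the members' segments, and leukocyte and fibroblast markers rose beside them.

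For each member, the 2 genes with the most similar pattern were found by the root mean square distance between the 6 group means of log2 CPM, each centred on its own mean, among genes whose mean log2 CPM reached 1. In log2 units Wnk1 had the smallest distances, to Sgms2 at 0.0646 and Arhgef19 at 0.0987. Distances were not scaled by a member's own spread about its mean, so they do not rank the members by likeness. That spread was 0.58 for Wnk1, 1.37 for Slc12a1 and 2.29 for Egf. Umod was nearest to Ces2e (0.0998) and 5930403L14Rik (0.119), Slc12a1 to Aspa (0.102) and Aass (0.116), and Slc12a3 to Oxgr1 (0.12) and Cubn (0.149). Trpm6 was nearest to Grip2 (0.183) and Nacad (0.21), Calb1 to Wfdc15b (0.238) and S100g (0.287), and Egf to Gpx6 (0.306) and Nccrp1 (0.333). Pvalb had none near it, with Cyp2d12 and 9030619P08Rik both at 1.22, where its own spread about its mean was 3.35. All distances rest on 6 group means and share the same libraries.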

How the data were processed

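The authors deposited raw counts per gene, used for all tests, and FPKM per gene, used for levels between genes and as an alternative. Per the submitters' processing notes, bcl2fastq 2.16, STAR 2.5, Cufflinks and the mm9 genome were used; the counter, annotation and use of strand are not given in the sources used here, so reads of overlapping or antisense genes cannot be told apart. Per the labels' protocols, 1 ug of TRIzol RNA went into TruSeq stranded mRNA libraries. The 2 files hold 23955 and 23953 symbols.

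Genes were kept by filterByExpr (minimum count 10, minimum total 15, 15080 genes). Counts were scaled by TMM and tested with edgeR 4.0.16 (quasi-likelihood, robust, R 4.3.3) in 1 model of 6 groups with 18 residual degrees of freedom, for 11 comparisons, with Benjamini-Hochberg adjustment over all genes tested and a threshold of 0.05. CPM use TMM-scaled library sizes. A mean is given with its SD and a log2 change with its SE. Ratios used counts + 0.5 and an exact permutation test. DESeq2 1.42.0, limma 3.58.1 on log2(FPKM + 1), other filters, a replicate block and leaving out libraries were alternatives. The test was checked on simulated counts with the same spread set for every group and no outlying library. This did not check it under the spread seen in WT at day 10.

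The genes named are the 8 members, Pld4, up to 4 genes of each list with the lowest adjusted p in WT at day 10, and the 2 nearest in pattern. Added to these are planned markers of each segment and of skeletal muscle, and Cxcr2 and Slc34a1 for the libraries that stand apart. Genes said in the text to be named after their values were seen were added too. Members and lists were chosen with earlier results of these data known. Some genes are not reported here. The lists cover other thick limb genes, other distal convoluted and connecting tubule genes, the WNK pathway, EGF receptors and ligands, transcription factors, and markers of proximal tubule, collecting duct, leukocytes, fibroblasts, endothelium, podocytes and skeletal muscle. Same-numbered libraries deviated together (every correlation over 0.1) from day 5 to day 10 in WT (0.105 to 0.361) and between genotypes at day 10 (0.141 to 0.306). In the other comparisons the correlations ran from -0.364 to 0.591, and what a number shares is not stated. The block was fitted to all 6 groups at once as an alternative, and the main values of these 2 comparisons are without it.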

Additional observations from a re-analysis of the deposited data

Results flagged for a closer look

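Of 48 pairs of a member and a group, 9 had 1 library whose gap to the nearest other exceeded the 95% critical value of Dixon's test for 4 values. Chance flags about 1 in 20 groups. In WT at day 10, replicate 4 was high for Egf, at 435 CPM (the others 10.9 to 30.1) and for Calb1, at 144 CPM (the others 21 to 29.4). Pvalb in the same library was at 0.212 CPM (the others 0), where the gap is the whole range by construction because the other 3 libraries have no counts, so that this one carries no weight. In the KO groups, Egf was high in day 0 replicate 4 at 3270 CPM (the others 2390 to 2430), Pvalb in day 5 replicate 1 at 1.75 CPM (the others 0.0566 to 0.221) and Wnk1 in day 5 replicate 4 at 545 CPM (the others 312 to 343), while Slc12a1 was low in day 5 replicate 3 at 515 CPM (the others 693 to 727). In the remaining WT groups, Calb1 was high in day 0 replicate 3 at 924 CPM (the others 557 to 611) and Wnk1 low in day 5 replicate 3 at 241 CPM (the others 347 to 367).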

How the results depend on the processing

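The count of members lower than day 0 stayed within 1.5 times under every alternative run, but for WT at day 5 with limma on log2(FPKM + 1) without a filter, where 3 passed. DESeq2 gave no adjusted p for Egf after UUO. From day 5 to day 10 in WT, 0 passed in the fit to those groups alone, 0 with limma without a filter and 0 without replicates 2 and 3 of WT at day 10 (an alternative chosen after seeing the data). Leaving out 1 library gave 0 to 6 there, 0 to 2 for KO against WT at day 10 and 0 to 2 for the difference in the day 10 response. With the replicate block the count of members passing was 1 from day 5 to day 10 in WT and 0 for KO against WT at day 10, and it moved no other count of members; over all genes it moved the latter from 212 to 19 calls.

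Signs turned in the 3 FPKM fits for Trpm6 in WT at day 10 (0.24, 0.29 and 0.24) and Umod in KO at day 5 (0.12 in each). Without replicates 2 and 3 of WT at day 10 they turned for Egf (0.75) and Slc12a3 (0.30) from day 5 to day 10, for Egf (-0.72) and Slc12a3 (-0.12) in KO against WT at day 10, and for Egf in the day 10 response (-0.93). With 1 library left out these Egf values ran from -2.85 to 0.21, from -0.24 to 2.87 and from -0.45 to 2.67. The day 10 response of Egf was near 0 and was -0.0022 without a filter and -0.0056 with a filter on CPM. The cause was not tested. The ratio tests gave 24 calls with 5 added to counts and 24 on FPKM. Few counts limit Pvalb after UUO.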
